A study of Mus musculus with 491 samples.

Results

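The cells described here are 111 of 491 single cells, called Fabp7-positive neural tube progenitor-like cells. They were chosen by their own expression values, on the log2(FPKM + 1) scale: Fabp7 of at least 5, Epcam below 5, Stmn2 below 5, Sox10 below 3 and Csf1r below 1. FPKM is the number of fragments scaled to transcript length and library size. Fabp7 encodes a fatty acid carrier of radial glia, Epcam an adhesion protein of epithelia, Stmn2 a protein of young neurons, Sox10 a factor of neural crest and otic epithelium, and Csf1r a receptor of macrophages. All cells came from E10.5 mouse embryos of the genotype Pax2-Cre/+;Ai14-tdTomato/+ and were sorted as tdTomato+ from dissected otic vesicles together with periotic tissue. The Ai14 reporter turns red where Cre, driven here by Pax2 sequences, has acted in a cell or in one of its ancestors, so that cells without that history were not collected. There is no control genotype and no treatment. Replicate 1 lies on plates 1 to 3 and replicate 2 on plates 4 to 6, and the sources used here do not say what a replicate stands for (an animal, a litter or a separate sort). The p-values below therefore measure the spread between plates, which may be technical.

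The neural tube is lined by dividing neuroepithelial cells that turn into radial glia and give rise to neurons. Notch signals keep these progenitors undifferentiated through Hes repressors, and cells that express the ligand Dll1 go on to become neurons. Along the dorsoventral axis, signals from the roof plate (Wnt, BMP) and the floor plate (Shh) set up domains with their own transcription factors, and along the rostrocaudal axis the hindbrain is split into rhombomeres that differ in their Hox genes.

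The 111 cells numbered 16, 14 and 18 on plates 1, 2 and 3 and 19, 19 and 25 on plates 4, 5 and 6. They made up 20.3% of the 237 cells of replicate 1 (exact 95% binomial interval 15.3 to 25.9, counting error only) and 24.8% of the 254 cells of replicate 2 (19.6 to 30.6). Among the members, Fabp7 ran from 5.04 to 11.15, with a median of 8.42. The lowest members stood at 5.04, 5.27 and 5.3, and the highest cells that failed on Fabp7 alone stood at 4.88, 4.69 and 4.61. Of the 59 cells that failed on Fabp7 alone, 8 lay between 4 and 5 and 3 between 1 and 4. The depth in reads is unknown, since the table holds FPKM. Members had a median of 4244 genes found per cell and the other 380 cells a median of 4606, where found means an FPKM of at least 1. Of the members' values, 76.4% were 0.

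Wells shared transcripts, and this touches the results that follow. The same 19 pairs of plate rows, 17 of them neighbouring rows of a plate, were linked in both replicates. They shared rare transcripts at the same column more than 4 times as often as at different columns. By the median ratio of their levels, the lower row was taken as receiving and the higher as its source. For a shared rare transcript, the lower of the 2 wells' levels was a median of 7.6% of the higher, with a 90th percentile of 27.0%. Of the members, 70 had such a source well with a cell in the data and 41 had none (21 in replicate 1 and 20 in replicate 2). Rows A to H of plates 2 and 5 were all receiving rows, yet 3 of the 41 lay on plate 2 and 2 on plate 5. The source wells of these members hold no cell in the data. The 41 members with no source well are therefore not all known to be free of transfer. Epcam was found in 27 members, and in 25 of them the source well had Epcam at 5 or more, against 1 of the 84 members without Epcam. Results are therefore given also for the 41 members with no source well and for corrected values, in which a level below 20% of the source well was set to 0. Transferred levels above that cut stay in the corrected values. On corrected values 5 members left the set and 10 cells entered it.

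Beside Fabp7, the label came with 5 markers that the rule did not use. They were chosen, like the members, with earlier results of these data known. Their shares therefore describe the members and are no independent check of the label. Rfx4, a transcription factor of the brain's neuroepithelium, was found in 91.9% of members and 15.3% of other cells. Hes5, the Notch target that holds back neuronal genes, was found in 86.5% and 32.4%. Fgfr3, an FGF receptor, was found in 82.0% and 23.4%, the endothelin receptor Ednrb in 73.0% and 20.3%, and Pax6, a homeodomain factor of neural progenitors, in 66.7% and 13.9%. With Fabp7 counted in, 42 members had all 6 markers, 38 had 5, 21 had 4, 9 had 3 and 1 had 2.

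Markers of other cells were counted in the members. The rule removed cells with high Epcam, Stmn2, Sox10 or Csf1r, so low levels of markers that go with these genes follow from the choice and are no evidence for the label. None of the 7 macrophage markers was found in any member. Of the 7 endothelial markers 4 were found in no member and no member had more than 1, and Krt5, Krt14 and Krt17 of surface ectoderm and Tfap2a and Ngfr of neural crest were also found in none. At least 3 of the 9 mesenchymal markers were found in 4 members, at least 3 of the 9 surface ectoderm markers in 2 and at least 3 of the 9 crest markers in 1. The labelled tissue's own marker Oc90, an otic matrix protein, was found in 6.31% of members and 26.8% of other cells. At least 3 of the 14 otic markers were found in 37 members as deposited, in 4 members on corrected values and in 2 of the 41 members with no source well. The summed plate mean of the otic list ran from 5.38 to 16.44 in members and from 36.86 to 46.78 in other cells. Of the 9 markers of placodal neuroblasts and neurons, at least 3 were found in 24 members, in 7 on corrected values and in 2 of those with no source well. Of the 4 erythroid markers with a usable row, no member had more than 1. The part of these markers in the results below was not tested beyond the corrected values and the members with no source well.

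The members were first set against all other cells. Since the members were chosen from values of the same cells, these differences are a description with no test. A gene was counted as higher or lower where the mean of the replicates' differences was at least 1 on the log2 scale with the same sign on 6 of 6 plates. Of 10241 genes, 133 (1.3%) were counted as higher and 353 (3.45%) as lower, and the median difference was -0.14. The split depended on the scale and on replicate 2: with log2 of the mean FPKM 176 genes were higher and 860 lower (17.0% of those counted were higher, against 27.4%), with a pseudocount of 0.1 the counts were 246 and 854, and without replicate 2 they were 165 and 631. The other cells are a mixture, so the members were also set against the 209 cells with Epcam at 5 or more, with 166 genes (1.62%) higher and 612 (5.98%) lower, and against the 98 cells with Stmn2 at 5 or more and Epcam below 5, with 357 (3.49%) higher and 673 (6.57%) lower. In all 3 comparisons 77 genes were counted as higher and 94 as lower.

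Genes of neural progenitors led the list. Hes5 (chr4:154960923-154962371, plus strand, mm10) averaged 6.76, 6.35 and 7.01 on plates 1 to 3 and 6.65, 7.4 and 7.05 on plates 4 to 6, against 1.32 to 2.9 in other cells. Rfx4 averaged 5.80, 5.19, 5.39, 4.33, 5.18 and 5.13 on the 6 plates, against 0.24 to 0.97. No member plate overlapped a plate of other cells for either gene, and the mean differences were 5.11 for Hes5 and 4.63 for Rfx4. Fez1, which links cargo to kinesin motors, was 4.37 higher, Fgfr3 3.87 higher and Pou3f2, a POU factor of neural precursors, 3.54 higher. Sfrp2, a secreted Wnt modulator, was 3.5 higher, Ednrb 3.42, the brain creatine kinase Ckb 3.42, the cytoplasmic phosphoprotein Pea15a 3.24 and the retinoic acid-binding protein Crabp1 3.13. The intermediate filament genes Vim and Nes, both classic progenitor markers, were 2.94 and 2.92 higher, and Vim was found in every member, at 9.12 to 10.04 on the 6 plates. The Hox cofactor Meis1 was 2.81 higher, and Pax3 and Pax6, described below, were 3.35 and 3.05 higher.

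**Figure D1:**
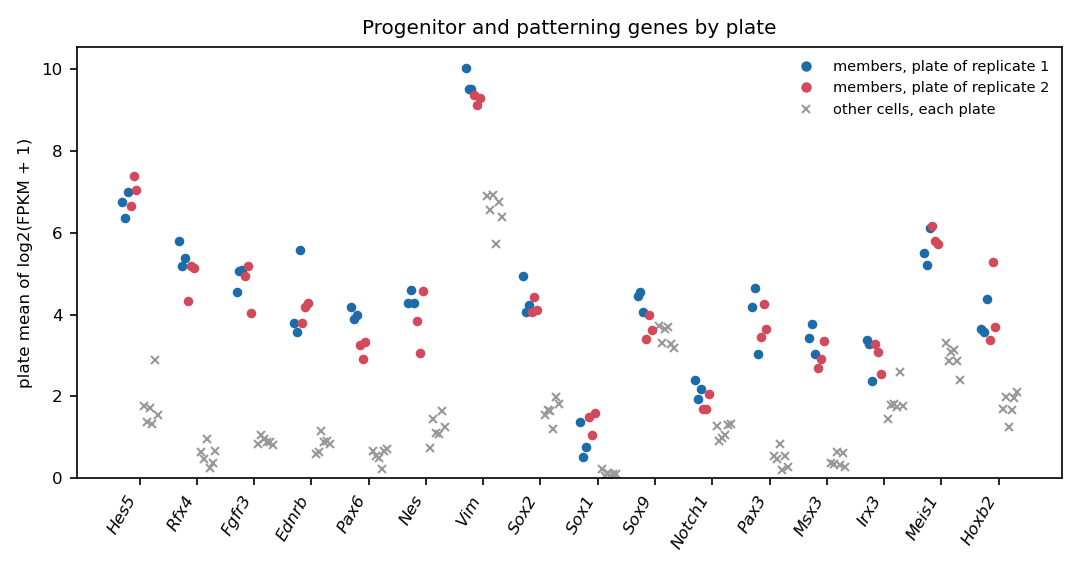
Plate means of log2(FPKM + 1) for 16 progenitor and patterning genes; circles are the Fabp7-positive members of each plate of replicate 1 (blue) and replicate 2 (red), and grey crosses are the other cells of each of the 6 plates. For Hes5, Rfx4, Fgfr3, Ednrb, Pax6, Nes, Vim, Sox2, Sox1, Pax3, Msx3, Meis1 and Hoxb2 every member plate lies above every plate of other cells.

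The 10 lowest genes included keratins and claudins of epithelia. The protease inhibitor Spint2 was 3.73 lower, the keratins Krt18 and Krt8 3.68 and 3.19 lower, and the claudins Cldn6 and Cldn7, which seal epithelial junctions, 3.61 and 2.99 lower. Eno3, a glycolytic enzyme, was 3.31 lower, Tes and Wfdc2 2.97 lower each, and the calcium-binding protein S100a11 2.88 lower. The rule itself left out cells with high Epcam, so low levels of genes that go with Epcam are no finding. Cldn6, found in 23.4% of members as deposited, was found in 0.90% on corrected values. Isl1, a LIM homeodomain factor of sensory and motor neurons, was 2.84 lower than in all other cells and 5.29 lower than in the Stmn2 group. The rule also left out cells with high Stmn2, so low levels of genes that go with Stmn2 are no finding either.

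Of the 40 listed genes of radial glia and neuroepithelium, 39 had a usable row, and 34 passed the filter on low values. Without Fabp7, which the rule used, 14 of 33 were counted as higher and 0 as lower, and the median difference was 0.84. A gene passed that filter with an FPKM of at least 1 in 5% of all cells. Among the SoxB1 factors that mark the neural plate, Sox2 was found in 86.5% of members and Sox3 in 51.4%, against 41.1% and 6.58% of other cells. Sox1, another SoxB1 gene, was found in 33.3% of members and 3.95% of other cells. Sox21 was found in 56.8% of members and Pou3f3 in 70.3%. Among genes that also mark later radial glia and astrocytes, chosen after their values were seen, the glutamate transporter Slc1a3 was found in 18.0% of members and 13.4% of other cells, and glutamine synthetase (Glul) in 37.8% and 58.2%. Tnc, Bcan and Gfap were found in 0 of 111, for which 3 counts allow a share of up to 2.7% of cells with the gene found; this sets no limit on cells that express it. Sox9, which otic epithelium also expresses, was found in 81.1% of members and 71.3% of other cells and was not counted as higher.

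The promoters shown are those of Hes5, a marker that came with the label, and Fabp7, the gene that the rule itself used. The sequences are the 200 bases from 250 to 51 before the start site on the plus strand (RefSeq, GRCm38.p6), chr4:154960673-154960872 for Hes5 and chr10:57784673-57784872 for Fabp7. Capitals mark matches, on either strand, to TGGGAA, the core of sites bound by the Notch effector RBPJ, and to CATTGT, a core of Sox sites.
Hes5: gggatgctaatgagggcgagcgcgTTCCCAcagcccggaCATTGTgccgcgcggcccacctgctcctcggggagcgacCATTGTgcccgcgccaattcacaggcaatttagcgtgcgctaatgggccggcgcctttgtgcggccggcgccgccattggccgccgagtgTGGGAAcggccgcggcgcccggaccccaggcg
Fabp7: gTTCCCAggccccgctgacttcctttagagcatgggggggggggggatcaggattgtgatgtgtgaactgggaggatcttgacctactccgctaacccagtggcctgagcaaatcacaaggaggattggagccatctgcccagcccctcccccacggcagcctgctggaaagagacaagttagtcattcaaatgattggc
Hes5 has TGGGAA or its reverse complement at 226 and 82 bases before the start site and CATTGT at 211 and 172, and Fabp7 has the reverse complement of TGGGAA at 249. Of 32817 windows of this length, 17.9% hold TGGGAA and 8.94% hold CATTGT on either strand. Among the genes counted as higher, 26 of the 109 with a window (23.9%) hold TGGGAA, against 19.8% of the 8162 tested genes with a window, and 5 (4.59%) hold CATTGT against 6.41%. A match describes these letters only.

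Notch receptors and targets followed Hes5 in part. Of 8 listed genes that passed the filter, 2 were counted as higher and 0 as lower: Hes5 and Nrarp, a feedback inhibitor of the pathway, found in 79.3% of members and 56.6% of other cells. The receptor Notch1 was found in 65.8% and 39.2% with a difference of 0.87, and Notch3 was found in 27.0% of members. Among FGF receptors and targets, the receptors Fgfr2 and Fgfr3 were counted as higher, while the FGF-induced genes Spry1 and Etv5 were counted as lower. Etv5 was found in 9.01% of members and 38.7% of other cells.

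Along the dorsoventral axis, 5 of 17 dorsal, 2 of 7 intermediate, 1 of 13 roof plate, 1 of 8 ventral and 0 of 9 floor plate genes were found in at least 50% of members as deposited, with Irx3 and Msx1 each in more than 1 list. Some fell below 50% on corrected values or in members with no source well: Msx1 (42.3% and 36.6%), Msx3 (49.55% and 46.3%) and Irx3 (55.0% and 46.3%). Pax3 (66.7% and 61.0%), Pax6 (64.0% and 61.0%) and Boc (54.1% and 51.2%) stayed above it. Of 10 dorsal progenitor genes that passed the filter, 5 were counted as higher and 0 as lower, with a median difference of 1.01. Pax3 (chr1:78101267-78197134, minus strand), the paired-box factor of the dorsal tube, averaged 4.19, 4.65 and 3.05 on plates 1 to 3 and 3.45, 4.26 and 3.64 on plates 4 to 6, against 0.21 to 0.84 in other cells. It was found in 34 of 48 members of replicate 1 and 45 of 63 of replicate 2. Msx3, a dorsal homeobox gene of the neural tube, was found in 26 and 36 members. The groups of plates did not overlap with other cells for either gene. Zic5 (found in 36.0% of members), Irx3 (61.3%) and Irx5 (79.3%), which are expressed more widely along the tube, were also counted as higher.

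Genes of single dorsal domains were each found in a minority. Olig3, which marks the most dorsal progenitors, was found in 28 members (10 and 18 in the replicates), and Gsx1, of a domain below, in 15 (7 and 8). Zic1, found in 27 members, and Zic4, found in 16, have overlapping exons on opposite strands, so their reads may not be told apart. Pax7 was found in 10, Atoh1 in 8 and Ptf1a, the factor of a dorsal inhibitory lineage, in 5. Among roof plate genes, Wnt1 was found in 10 and Wnt3a in 14, while Lmx1a and Bmp7 were counted as lower, found in 9.01% and 13.5% of members against 32.4% and 32.1% of other cells. Bmp7 was found in none of the 41 members with no source well.

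Intermediate and ventral genes followed. Pax6 averaged 4.19, 3.89 and 4.0 on plates 1 to 3 and 3.25, 2.91 and 3.32 on plates 4 to 6. Dbx1 and Dbx2, homeobox genes of the middle of the tube, were found in 15 members each. Of the genes in the ventral list, the Shh co-receptor Boc, which dorsal cells also express, was found in 56.8% of members and counted as higher. Boc was found in 56 of 79 members with the dorsal gene Pax3 and in 7 of 32 without, so its share is no measure of ventral cells. The Shh receptor and target Ptch1 was found in 25.2%. Olig2, of motor neuron progenitors, was found in 2 members, Foxa2, of the floor plate, in 5 and Shh in 1. Nkx6-1, Nkx6-2, Nkx2-2 and Nkx2-9 had no usable row and were not analysed here, so the ventral side of the tube is described by few genes.

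**Figure D2:**
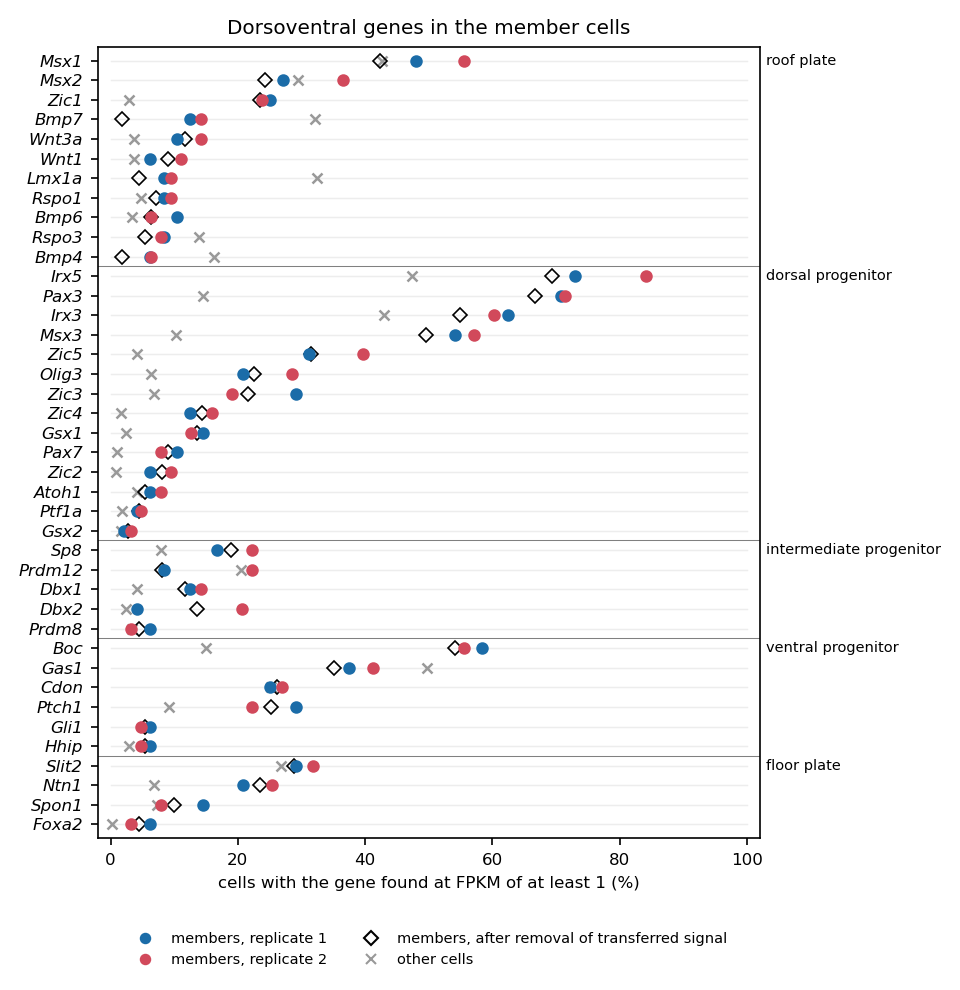
Share of cells (%) in which each dorsoventral gene was found at an FPKM of at least 1, for genes found in at least 2% of members and reported here; blue and red circles are the members of replicates 1 and 2, diamonds all members on values corrected for transfer, and grey crosses the other cells. Irx5, Pax3, Irx3 and Msx3 lie furthest right among the dorsal genes, and for Lmx1a, Bmp7 and Bmp4 the other cells lie to the right of the members.

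Genes of the dorsal tube were often found in the same cells. These pairs were chosen after their values were seen. All 10 members with Pax7, all 15 with Gsx1, 26 of 27 with Zic1 and 58 of 62 with Msx3 also had Pax3, which was found in 79 of 111 members. Olig3 was accompanied by Msx1, a BMP-responsive homeobox gene, in 25 of 28 members, while Msx1 was found in 33 of the 83 members without Olig3. All 8 Atoh1-positive members, 9 of 10 with Wnt1 and 11 of 14 with Wnt3a had Olig3. Gsx1 and Olig3 were found together in 1 member, out of 15 and 28. Pax3 was found in 0 of the 5 Foxa2-positive members. Ptch1 went with Pax6 in 27 of 28 members, while Pax6 was found in 47 of the 83 members without Ptch1. Dbx1 went with Dbx2 in 8 of 15 members, 1 of 6 in replicate 1 and 7 of 9 in replicate 2. Dbx2 was found in 7 of the 96 members without Dbx1. On corrected values the same counts were 10 of 10 for Pax7, 15 of 15 for Gsx1, 52 of 55 for Msx3, 23 of 25 for Olig3 with Msx1 and 25 of 28 for Ptch1 with Pax6. A gene that is not found in a single cell may still be expressed there, so the counts may understate what is shared.

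Levels were also compared across the members. Correlations are Pearson's r across the 48 members of replicate 1 and the 63 of replicate 2, taken separately, over 7927 genes found in at least 10% of members of each. They are descriptions with no p, and all points share the depth of their cell and its plate. The gene nearest to Pax3 was Ptn, a secreted growth factor, with r of 0.72 and 0.67. Boc (0.48 and 0.45), Msx3 (0.51 and 0.44), Bnip3 (0.48 and 0.42) and Pgk1 (0.40 and 0.37) came next, and 20 genes reached 0.3 in both replicates. In the members with no source well these were 0.75 and 0.80 for Ptn, 0.43 and 0.30 for Boc, 0.60 and 0.62 for Msx3, 0.73 and 0.49 for Bnip3 and 0.57 and 0.27 for Pgk1. At the other end, chosen after their values were seen, stood Sfrp1, a secreted Wnt modulator, with r of -0.62 and -0.41, and the heparan sulfatase Sulf2 with -0.35 and -0.39. Ptn was found in 74 of 79 members with Pax3 and in 13 of 32 without it, Sfrp1 in 45 of 79 and 29 of 32, and Sulf2 in 30 of 79 and 19 of 32. Among the members with no source well, Ptn was found in 24 of 25 with Pax3 and 3 of 16 without, Sfrp1 in 15 of 25 and 15 of 16, and Sulf2 in 3 of 25 and 9 of 16. Pax6 was found in 17 of the 32 members without Pax3 and in 57 of the 79 with it.

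Olig3 (chr10:19356533-19358604, plus strand) went with Msx1 at r of 0.62 and 0.51, with the transcriptional cofactor Dach2 at 0.45 and 0.49, and with Cachd1 (0.46 and 0.40), the Wnt feedback gene Nkd1 (0.45 and 0.39) and the immediate early gene Fos (0.41 and 0.38). With Fos the values were 0.15 and 0.27 in the members with no source well, while for Msx1 they were 0.62 and 0.53. The anchors Pax7, Dbx2, Olig2 and En2 were found in under 10% of the members of a replicate, so that no correlation was taken for them.

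**Figure D3:**
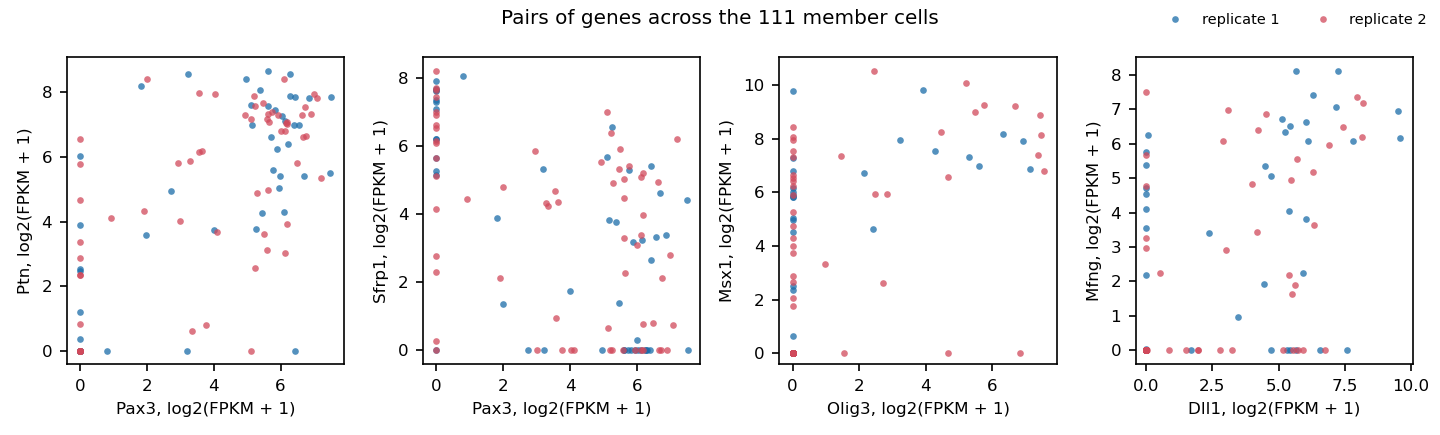
Log2(FPKM + 1) of 2 genes in each of the 111 members, replicate 1 in blue and replicate 2 in red. Ptn is found in 74 of 79 members with Pax3, most members without Pax3 have Sfrp1, Msx1 accompanies Olig3 in 25 of 28 members, and Mfng is found more often where Dll1 is.

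On the rostrocaudal axis the members carried Hox genes of the hindbrain. Hoxb2 was found in 83 of 111 members, Hoxa2 in 72, Hoxb1 in 46, Hoxb3 in 32, Hoxa3 in 23 and Hoxd3 in 12. Hoxa4 was found in 2, Hoxb4 and Hoxc4 in 1 each and Hoxd4 in 0. Of the 18 genes of Hox groups 5 to 9 and Cdx, 16 were found in no member, and Hoxb5 and Hoxc5 were found in 1 member each. Of the 5 genes of Hox groups 1 to 4 that passed the filter, 3 were counted as higher (Hoxb1, Hoxa2 and Hoxb2) and 0 as lower. Exons of Hoxa2, Hoxa3, Hoxb2, Hoxb3 and Hoxd3 overlap those of other annotated transcripts, and the kits named in the labels do not mark strand, so reads from these may be mixed.

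Hoxb1 (chr11:96365752-96368256, plus strand), which in the hindbrain of this stage marks rhombomere 4, averaged 3.29, 1.91 and 2.26 on plates 1 to 3 and 1.48, 3.46 and 2.05 on plates 4 to 6, against 0.11 to 0.74 in other cells. Hoxb2 averaged 3.65, 3.57, 4.38, 3.39, 5.29 and 3.69 on the 6 plates, against 1.26 to 2.11. Hoxa2 averaged 4.07, 3.06, 3.3, 3.2, 3.77 and 4.69, against 0.67 to 1.41. For all of these genes every member plate lay above every plate of other cells.
The promoter of Hoxb1 is shown because Hoxb1 is regulated by Hox proteins with their Pbx partners, whose sites follow TGATNNAT. The sequence is the 200 bases from 250 to 51 before the start site on the plus strand (RefSeq, GRCm38.p6), chr11:96365508-96365707, with the match on either strand in capitals, 162 bases before the start site.
Hoxb1: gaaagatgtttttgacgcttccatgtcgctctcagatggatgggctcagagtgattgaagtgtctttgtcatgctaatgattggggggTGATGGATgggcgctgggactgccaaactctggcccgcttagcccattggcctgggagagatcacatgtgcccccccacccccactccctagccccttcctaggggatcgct
Of all 32817 windows, 6.45% hold this motif, and so do 4 of the 109 genes counted as higher (3.67%), against 3.79% of the tested genes.

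Other regulators of the hindbrain were found to varying degrees: of 20 that passed the filter, 4 were counted as higher and 0 as lower. Meis1 was found in 97.3% of members, Epha4, an ephrin receptor of odd rhombomeres, in 82.0%, and Cyp26b1, which degrades retinoic acid, in 40.5%. Meis1 was found in 59.7% and Epha4 in 52.4% of other cells, and these 3 genes were counted as higher together with Irx2. Egr2, the factor of rhombomeres 3 and 5, was found in 12 members (6 in each replicate), and its difference from other cells was 0.15. Gbx2, of the anterior hindbrain, was found in 43 members, 38.7%, and in 25.3% of other cells.

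Genes of the forebrain and midbrain were found in few members. Of 11 forebrain genes, 6 were found in no member. En1, En2, Pax5 and Lmx1b were found in no member. Otx2, of forebrain and midbrain, was found in 10 members, in 5 on corrected values and in 2 of the 41. Of the 10 members with Otx2, 7 also had Hoxb2, and on corrected values 2 of 5 did.

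**Figure D4:**
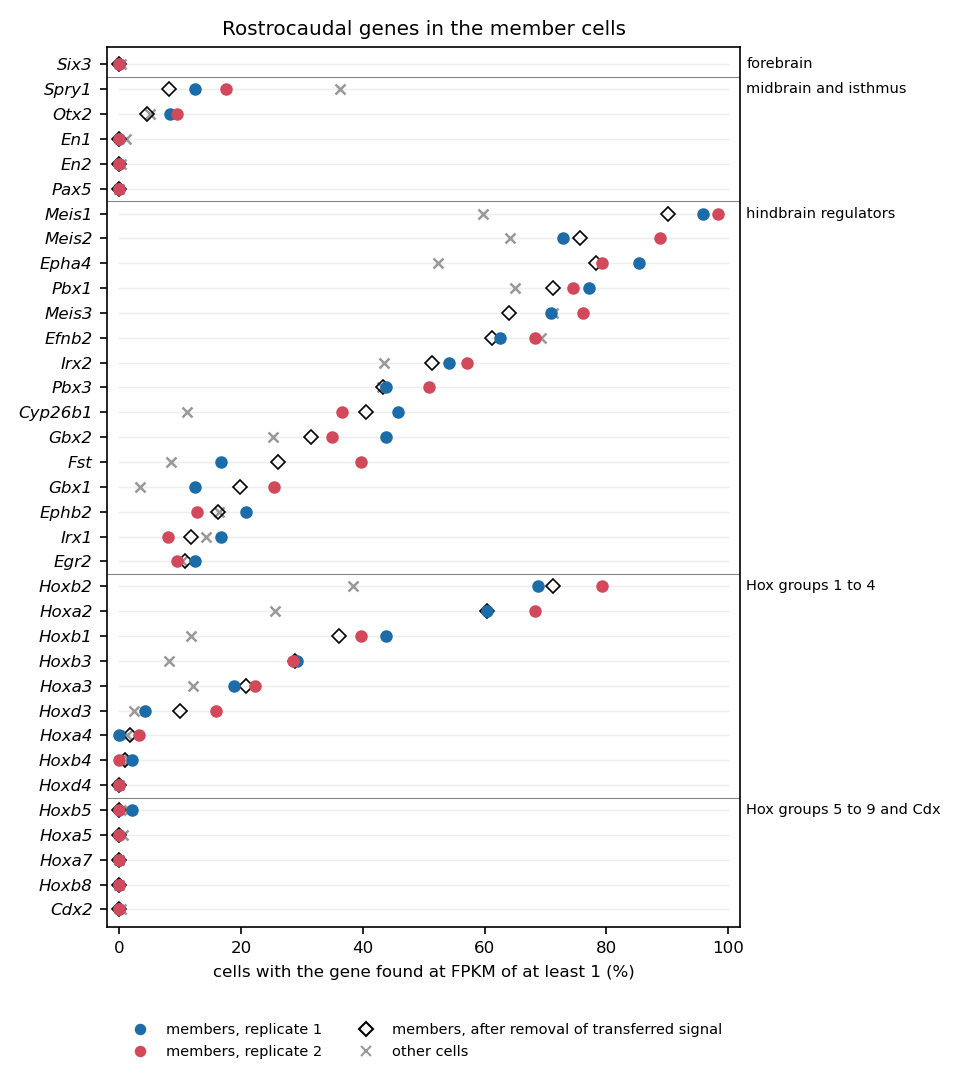
Share of cells (%) with each rostrocaudal gene found, with symbols as in the plot of dorsoventral genes; genes found in at least 10% of members and reported here are shown with chosen genes at or near 0. Hox groups 1 to 3 are found in members, while Six3, En1, En2, Pax5 and the genes of Hox groups 5 to 9 lie at or near 0.

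Single cells differed in their Hox genes. Hoxa2 or Hoxb2 was found in 95 members and both in 60. A group 3 gene was found in 48 members, 44 of which had Hoxa2 or Hoxb2. Hoxb1 without a group 3 gene was found in 27 members, Hoxb1 with a group 3 gene in 19, Hoxa2 or Hoxb2 with neither in 26, and none of the genes of groups 1 to 4 in 10. In the same order these were 24.3%, 17.1%, 23.4% and 9.01% of members, and 7.37%, 4.47%, 23.2% and 50.8% of other cells. As deposited, the class with Hoxa2 or Hoxb2 alone was thus about as frequent in other cells as in members. On corrected values the members' counts were 21, 19, 29 and 14. The class with Hoxa2 or Hoxb2 alone then made up 26.13% of members and 16.84% of other cells. It made up 19.51% of the 41 members with no source well. Whether this class is a feature of the members therefore depends on the correction. Of the 46 Hoxb1-positive members, 42 also had Hoxb2, against 41 of 65 without Hoxb1, and r between their levels was 0.37 in each replicate, and 0.44 and 0.23 in the members with no source well. Hoxb2 was also found in 28 of the 32 members with Hoxb3, against 55 of the 79 without. Hoxb2 went with 3 genes at r of at least 0.3 in both replicates, Hoxa2 with 0, Hoxb3 with 4 and Gbx2 with 14, whose highest pair was 0.45 and 0.35. Hoxb3 was low where it was found, with a median of 2.17, and at such levels a weak correlation shows nothing.

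**Figure D5:**
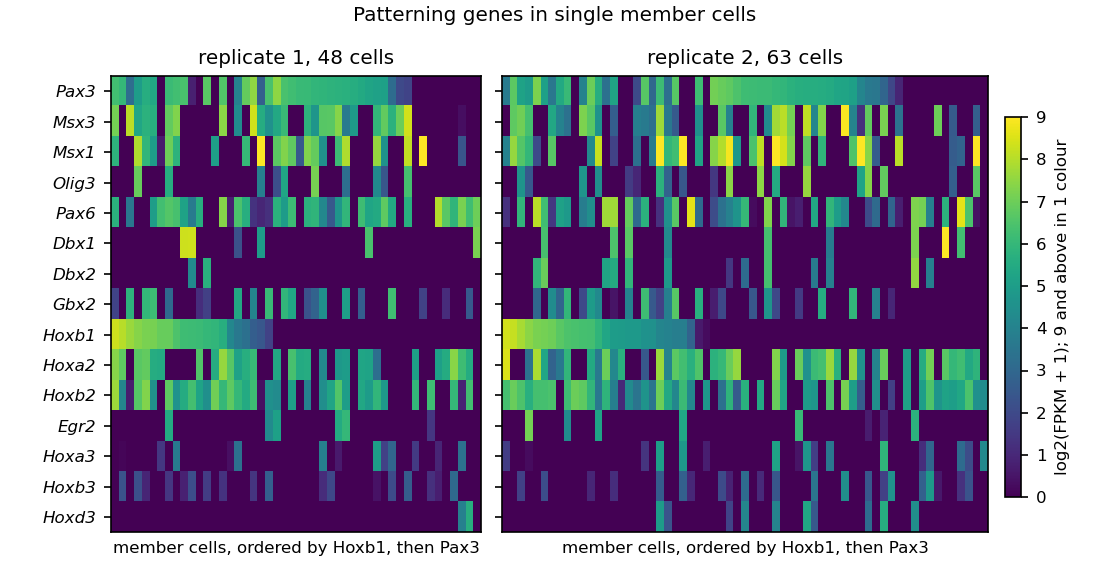
Levels of 15 patterning genes (down the side) in each of the 111 members (across), by replicate and ordered by Hoxb1 and then Pax3; colour is log2(FPKM + 1), with 9 and above in 1 colour. Pax3 and Pax6 run through cells with and without Hoxb1, Hoxb2 is found in 42 of 46 Hoxb1-positive members, and the group 3 genes, Egr2, Dbx1 and Dbx2 are found in scattered cells.

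The members also differed in how far they had gone towards neurons and in the cell cycle. Dll1 was found in 50.5% of members and counted as higher, with 56.3% in replicate 1 and 46.0% in replicate 2. Its level went with that of Mfng, a glycosyltransferase that modifies Notch, at r of 0.48 and 0.56, with the Hes family member Hes6 (0.46 and 0.43), the noncoding RNA Miat (0.43 and 0.39), the proneural gene Neurog2 (0.51 and 0.39) and the growth arrest gene Gadd45g (0.58 and 0.36). In the members with no source well these correlations were 0.54 and 0.71 for Mfng, 0.55 and 0.30 for Hes6 and 0.60 and 0.41 for Miat. For Neurog2 they were 0.37 and 0.31, and for Gadd45g 0.42 and 0.29. Mfng was found in 38 of 56 members with Dll1 and 14 of 55 without. Hes5 was found in 49 of the 56 members with Dll1 and in 47 of the 55 without. Of 14 neurogenic genes that passed the filter, Dll1 was counted as higher than in all other cells and Insm1, Jag1 and Hes6 as lower. These counts depended on the reference. Against the Epcam group 3 of the 14 were counted as higher and 1 as lower, and against the Stmn2 group 0 and 6. Of 12 genes of neural tube neurons, 0 were counted as higher, and Dcx and Isl1 were counted as lower.

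Top2a, needed to separate chromosomes, was found in 81.1% of members, and 208 genes went with it at r of at least 0.3 in both replicates. The nearest were Prc1 (0.81 and 0.74), Aurkb (0.75 and 0.71), Ect2 (0.68 and 0.68), Ccnf (0.66 and 0.68) and Nusap1 (0.64 and 0.69), all of mitosis or cytokinesis or its timing. Members had a median of 14 of 16 S phase genes and 10 of 16 genes of G2 and mitosis found per cell, and other cells 13 and 9. Of these lists, Mcm2 and Rrm2 of S phase and Top2a and Ccnb2 of mitosis were counted as higher and 0 as lower. Against the Stmn2 group 12 of 16 genes of each list were counted as higher, and against the Epcam group 0 of either.

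The spread inside the set was largest for genes of several kinds. Among 4612 genes found in 20 to 80% of members in both replicates, the highest standard deviations over cells were those of Ube2c (4.05 in replicate 1 and 3.64 in replicate 2), Gadd45g (3.59 and 4.0), Spc25 (3.83 and 3.47), Msx1 (3.46 and 3.63) and Ccnb1 (3.51 and 3.43). The next were Plk3, Tubb3, Cenpp, Fam181a, Cdc20, Aurkb, Id4, Asf1b, Prc1 and Nmd3, with values from 3.12 to 3.58. Of these 15 genes, 3 (Ube2c, Ccnb1 and Aurkb) are in the list of G2 and mitosis, and Msx1 was the 1 gene of the dorsoventral lists. That list holds only 16 genes and leaves out others that act in mitosis, such as Prc1, described above with Top2a. The 3 are therefore a lower limit on the mitotic genes among the 15. Tubb3, a neuronal tubulin, was found in 84.3% of members with a source well and 58.5% of those without, and the part of transfer in its spread was not tested.

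The replicate is given by the labels and was not used by the rule, so replicate 2 was tested against replicate 1 on the 6 plate means of the members, by limma with Benjamini-Hochberg adjustment. Of 9649 genes found in at least 5% of members, 0 (0%) had an adjusted p below 0.05. An unadjusted p below 0.05 was reached by 536 (5.555%), near the share expected at that threshold where no gene differs. The 5 genes with the smallest p were Thg1l, Pcgf1, Tcf19, Bcl10 and Ano8, all higher in replicate 2. Thg1l averaged 1.1, 0 and 0.12 on plates 1 to 3 and 1.69, 2.01 and 2.36 on plates 4 to 6, a difference of 1.61 (SE 0.41, limma adjusted p = 0.773). Bcl10 averaged 1.66, 1.89 and 1.77 against 3.73, 4.39 and 2.98, a difference of 1.93 (SE 0.52, limma adjusted p = 0.773). The plates of the replicates did not overlap for either gene, which held for 10.8% of all 9649 genes.

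Among the patterning genes, Dbx2 had the smallest p. It averaged 0, 0.41 and 0.24 in replicate 1 and 1.46, 0.89 and 0.80 in replicate 2, a difference of 0.83 (SE 0.28, limma adjusted p = 0.773), and was found in 2 of 48 and 13 of 63 members. Fst, an inhibitor of activin and BMP signals, averaged 0.15, 0.82 and 1.07 against 2.11, 1.77 and 1.81, a difference of 1.22 (SE 0.42, limma adjusted p = 0.773), and was found in 8 and 25 members. The plates of the replicates did not overlap for either gene, as for 10.8% of all 9649 genes, and neither passed the adjustment. In replicate 1 the members' median of genes found was 3964 and in replicate 2 it was 4383, and the part of that in these differences was not tested.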

How the data were processed

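Each sample is 1 cell. The authors deposited a table of log2 values, read here as log2(FPKM + 1) from its name and its values (99.75% of those above 0 give numbers of 6 significant digits, to a relative error of 1e-07, when transformed back). The tools named per the submitters' processing notes are Cufflinks, TopHat, Bowtie2, Bowtie, SAMtools, cutadapt and FastQC, with build mm10 and no versions. Of 19659 rows, 19630 matched GENCODE M21, 132 rows with repeated identifiers were left out, and 19494 genes remained.

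The members and gene lists were chosen with earlier results of these data known. Named genes are the 6 markers, listed progenitor, dorsoventral and rostrocaudal genes found in at least 10% of members, the 15 highest and 10 lowest differences, the 15 highest standard deviations, the 5 smallest p between replicates, and the 5 genes nearest to each of 12 anchor genes. Rarer listed genes, examples from the state, signalling and marker lists, pairs of genes and genes with negative correlations were named after their values were seen. Genes needed an FPKM of at least 1 in 5% of cells. Levels were averaged per plate and replicate. Shares carry exact (Clopper-Pearson) 95% intervals, which cover counting error only. The replicates were compared with limma 3.58.1 (R 4.3.3, trend), tested on simulated data, as was the counting rule. Alternatives included a pseudocount of 0.1, log2 of mean FPKM, upper-quartile scaling and no filter. Others were Fabp7 at 4 or 6, corrected values, cells with no source well, and each plate or replicate left out. Python 3.11.15 with pandas 2.3.3 was used. Qk, 4 Nkx genes and 3 globin genes of the lists had no usable row and were not analysed here. Results for some listed genes are not reported here.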

Additional observations from a re-analysis of the deposited data

How the results depend on the processing

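The number of genes counted as lower than other cells, 353, was 860 with log2 of the mean FPKM and 854 with a pseudocount of 0.1, and the number counted as higher, 133, was 246 with that pseudocount. Genes counted as higher were 27.4% of all counted in the deposited values and 17.0% with log2 of the mean FPKM. Leaving out a plate or a replicate gave 125 to 186 genes as higher and 337 to 631 as lower, with 631 in replicate 1 alone (without replicate 2), and 137 to 138 listed genes found in at least 10% of members, against 137 of the 239 listed genes other than markers of other cell types with all cells. The other settings gave 117 to 176 as higher, 325 to 395 as lower and 120 to 140 listed genes. The median difference was -0.25 with the pseudocount of 0.1, against -0.14. Of the genes counted as higher, 84 were shared with the count in cells with no source well and 131 with that on corrected values. No named difference from other cells that was counted changed sign, but 58 of 96 moved by more than the spread between plates with the pseudocount and 52 with log2 of the mean FPKM. Of 137 shares, 39 moved beyond their interval on corrected values, 41 in members with no source well and 45 with found at an FPKM of 5. Between the replicates, 0 genes had an adjusted p below 0.05 by limma under every setting, with smallest adjusted p of 0.318 to 0.999 and 254 to 764 genes at an unadjusted p below 0.05. No paired analysis was possible because the replicates hold different plates. Counts of cells with 2 genes and correlations were recomputed on corrected values and on the members with no source well, settings chosen after seeing the data: 14 and 24 of 32 correlations moved by more than the SD of the replicates' values, and 7 and 12 of 89 shares of pairs moved beyond their interval. Shares rest on 111 cells, and a gene not found in a cell may lie below what its unknown depth can show.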
